A study of Mus musculus with 3 samples.

Results

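The genes described here encode 35 nuclear receptors other than the steroidogenic factor itself, out of 21951 protein-coding genes of the GENCODE mouse annotation. They were chosen by name, with earlier results of these data known, and the 14 other nuclear receptor genes are counted apart at the end. The shares below therefore hold for this choice of genes. A gene was counted as having a peak when an Ad4BP/SF-1 peak overlapped its body or the 10 kb on either side. Ad4BP/SF-1 (NR5A1) is a nuclear receptor of steroid-producing cells, and the series asked where it sits on the genome of mouse Leydig cells, the androgen-producing cells of the testis. The cells came from the pooled testes of male ICR mice aged 9 weeks, were isolated on a density gradient and grown on collagen-coated dishes, and the labels name no genetic change and no difference between the groups other than the treatment. They were treated with vehicle or with cAMP, the second messenger that stimulates steroidogenesis, before chromatin immunoprecipitation and sequencing (ChIP-seq), and each treatment has 1 library. No difference between vehicle and cAMP could therefore be set against replicate error, and none of the values below carries a test. The labels give no dose or duration of cAMP. An input DNA sample was not used here.

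Nuclear receptors are transcription factors, many of them switched by a steroid, thyroid hormone, retinoid or fatty acid, that share a zinc-finger DNA-binding domain and recognise variants of the hexamer AGGTCA. Most bind as pairs, often with a retinoid X receptor as partner. Ad4BP/SF-1 binds as a single molecule to a hexamer lengthened at its 5′ side, and the estrogen-related receptors and the RORs recognise similar lengthened hexamers.

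The vehicle list held 5721 peaks and the cAMP list 4025. Each peak carries the MACS score of the authors, minus 10 times the base-10 logarithm of its p-value, and the lowest scores were 50 and 50.01. These minimums are stricter than the p-value threshold named in the study's methods, so regions that passed only that looser threshold are not in the lists and count here as having no peak. Read numbers are not part of the lists, and the depth behind each score is therefore unknown. Because a score rises with depth, it is read here against its own list, as the percentage of that list's peaks that scored lower. Where no peak was called, Ad4BP/SF-1 may still have been bound below the threshold. A peak list holds no expression, and the labelled cell type could be checked only by binding. Of 8 Leydig cell markers, 3 (*Star*, *Cyp11a1* and *Hsd17b3*) had a peak in both lists, and *Cyp17a1*, *Hsd3b1*, *Hsd3b6*, *Insl3* and *Lhcgr* had none, where 10.1% of all protein-coding genes had a peak in both. Of 6 Sertoli cell, 5 germ cell and 4 macrophage markers, 1, 0 and 1 had a vehicle peak (19.3% of all genes) and 0, 1 and 1 a cAMP peak (13.9%). By the measure used for the Leydig cell markers, 0, 0 and 1 (*Cd68*) had a peak in both lists. These few markers therefore do not settle the cell type.

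The sequences that carry most of the peaks at nuclear receptor genes were copies of TCAAGGTC, TCAAGGCC, CCAAGGTC or CCAAGGCC, which together are taken here as the Ad4BP/SF-1 consensus. They were read from the mm10 genome on both strands and are shown 5′ to 3′ on the strand of the copy, with the consensus in capitals and 11 bases on each side. For each region called in both lists 1 copy shared by the lists is shown, although the *Esrrb* region holds 3 and the vehicle peak of the inner *Rora* intron 2, and a copy is shown for 3 peaks called in 1 list only.
*Thra*, 5′ end, chr11:98741353-98741360, plus strand: ctgtaatgtgtTCAAGGTCacacagggagt
*Thra*, intron 2, chr11:98755043-98755050, plus strand: cgtgaccctggCCAAGGTCactgtgtcagt
*Thra* and *Nr1d1*, chr11:98776317-98776324, plus strand: cagggactggcTCAAGGTCaggcattcact
*Rara*, 5′ end, chr11:98929388-98929395, minus strand: ttctggcagggTCAAGGTCaggtaaaccca
*Rora*, 5′ end, chr9:68656418-68656425, minus strand: tacatctgaggTCAAGGTCtgcaactgcaa
*Rora*, inner intron, chr9:68757165-68757172, plus strand: gtaatgcaggcTCAAGGTCaaggggcacac
*Esrrg*, peak of both lists, chr1:187809698-187809705, minus strand: ggcagaagaggTCAAGGCCagggacacctc
*Esrrb*, peak of both lists, chr12:86446862-86446869, plus strand: agcacttgagtTCAAGGTCagctgggttac
*Nr6a1* and *Nr5a1*, chr2:38718871-38718878, plus strand: acagtgctgggTCAAGGCCgtggagggagc
*Esrra*, vehicle only, chr19:6922337-6922344, plus strand: gcggacaaaacTCAAGGTCactgcggtgac
*Thrb*, vehicle only, chr14:17983603-17983610, minus strand: gtttttcacttCCAAGGTCaggcacttcaa
*Ppard*, cAMP only, chr17:28249008-28249015, minus strand: agacatggagtTCAAGGTCatccttagctt

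In the vehicle list, 16 of the 35 nuclear receptor genes had a peak, or 45.7% (95% exact Clopper-Pearson interval 28.8% to 63.4%, which like all intervals here covers counting error only), beside 19.3% of all protein-coding genes. In the cAMP list 9 genes did, or 25.7% (12.5% to 43.3%), beside 13.9% of all genes. Both lists held a peak at 7 genes, or 20% (8.44% to 36.9%), against 10.1% of all genes, and either list at 18 genes, or 51.4% (34% to 68.6%), against 23.1%. The 7 genes with a peak in both were *Rora*, *Esrrg*, *Esrrb*, *Thra*, *Rara*, *Nr3c2* and *Nr6a1*. Another 9 had a peak in the vehicle list only and 2, *Ppard* and *Rorb*, in the cAMP list only. No peak was called at the other 17.

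Nuclear receptor genes are long, with a median length of 67.8 kb against 17.4 kb for all genes, and a long gene has more room for a peak. The genes were therefore set beside all genes of similar length, in 5 classes of equal size. In the longest class, with genes of at least 58103 bp, 9 of 19 nuclear receptor genes had a vehicle peak, where 33.8% of all genes did, and 7 of 19 had a cAMP peak, where 27.3% did. In the next class, 3 of 7 had a vehicle peak (21.8% of all genes) and 2 of 7 a cAMP peak (15.6%). In the class below it 1 of 4 had a vehicle peak (18.2%), and in the class below that 3 of 5 (13.3%), whereas none of these 9 genes had a cAMP peak (12.3% and 8.36%). No nuclear receptor gene was in the shortest class. Per length, the windows of the 35 genes held 4.59 vehicle peaks per Mb and those of all protein-coding genes 3.42, and 3.31 against 2.33 cAMP peaks per Mb. The share of genes with a peak was thus above that of all genes in each of the 4 length classes for the vehicle list and in the 2 longest classes for the cAMP list, by differences that rest on few genes.

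Other rules for giving a peak to a gene changed the counts and, with them, the share of all genes. Within the gene body only, 11 nuclear receptor genes had a vehicle peak (12.6% of all genes), 8 a cAMP peak (9.15%), 6 both (6.42%) and 13 either (15.4%). With 50 kb on either side, the counts were 21 (36.7%), 16 (28.8%), 14 (22.5%) and 23 (43.1%). When each peak went to the gene with the nearest TSS, the transcription start site, they were 15 (18.1%), 12 (14.1%), 8 (9.65%) and 19 (22.5%). With 10 kb and a score of at least 75 they were 8 (10.8%), 5 (6.71%), 3 (4.87%) and 10 (12.6%). At a score of at least 100 they were 5 (6.62%), 2 (4%), 2 (2.8%) and 5 (7.83%), and the 5 genes were *Esrrg*, *Nr6a1*, *Rora*, *Thra* and *Thrb*.

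**Figure D1:**
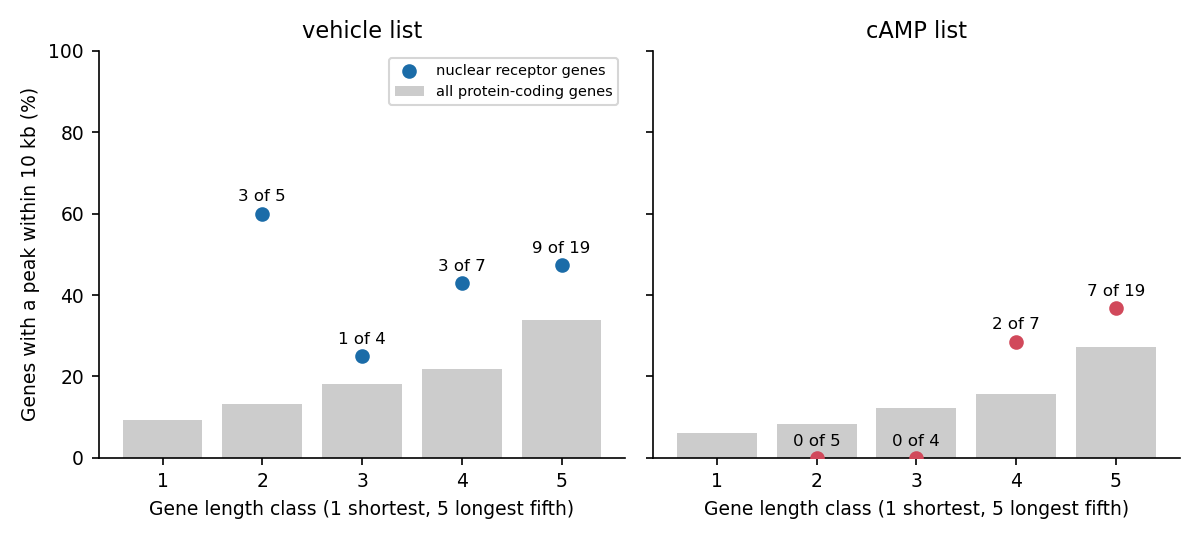
Share of genes with a peak within 10 kb, in percent, by gene length class (5 classes of equal size over all protein-coding genes, 1 the shortest). Grey bars are all protein-coding genes and points the nuclear receptor genes, labelled with their counts. In the longest class 9 of 19 nuclear receptor genes had a vehicle peak and 7 of 19 a cAMP peak.

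Together the lists held 25 vehicle and 18 cAMP peaks at these genes, in 34 separate regions. Of these regions, 9 were called in both lists, 16 in the vehicle list only and 9 in the cAMP list only. A cAMP peak overlapped 36% of the vehicle peaks (18% to 57.5%), close to the 37.9% over the whole vehicle list. A vehicle peak overlapped 50% of the cAMP peaks (26.0% to 74.0%), beside 53.8% over the whole cAMP list. The scores of the vehicle peaks ran from 51.2 to 314.86 with a median of 71.9, against a median of 72.4 for all vehicle peaks. Those of the cAMP peaks ran from 50.4 to 184.21 with a median of 63.2, against 67.8. By these medians, the vehicle peaks at nuclear receptor genes were of ordinary height for their list, and the cAMP peaks were somewhat lower. A score of at least 100 was reached by 7 of 25 vehicle peaks (28%), beside 26.6% of all vehicle peaks. It was reached by 2 of 18 cAMP peaks (11.1%, 1.38% to 34.7%), beside 23.0% of all cAMP peaks. A total of 8 of 25 vehicle and 7 of 18 cAMP peaks scored under 60, as did 28.1% of all vehicle and 35.4% of all cAMP peaks.

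**Figure D2:**
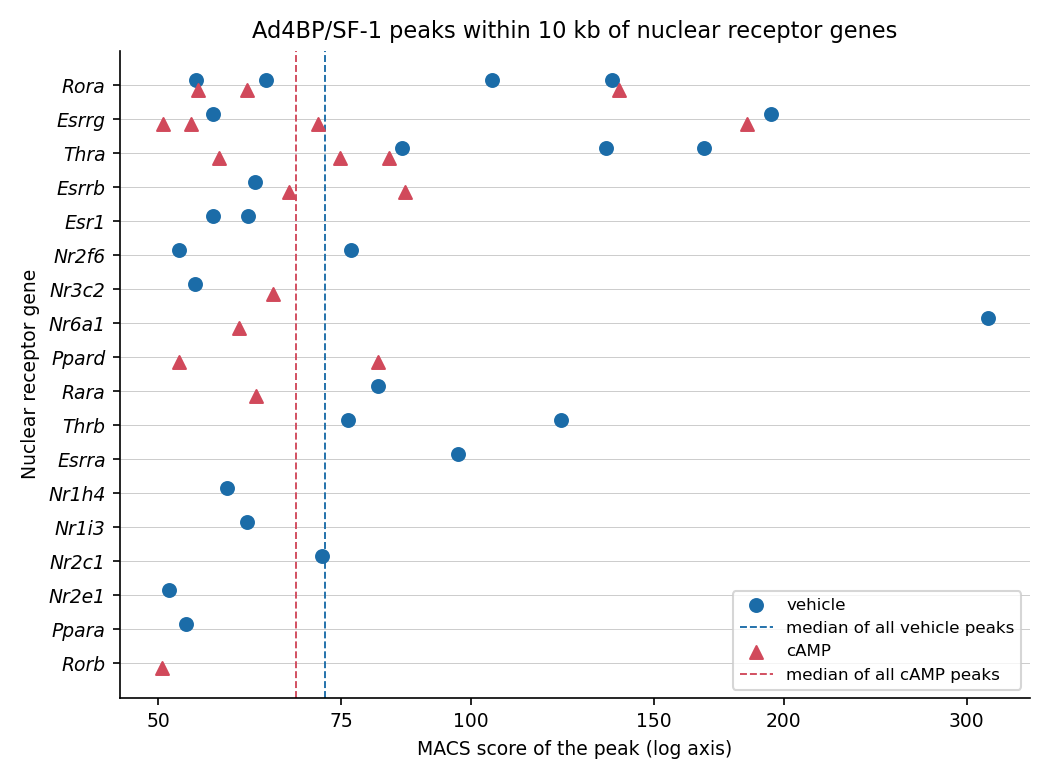
MACS score (log axis) of each peak within 10 kb of a nuclear receptor gene, with vehicle peaks as circles and cAMP peaks as triangles. Dashed lines mark the medians of all peaks, 72.4 for vehicle and 67.8 for cAMP, and 12 of 25 vehicle peaks and 7 of 18 cAMP peaks scored above the median of their list.

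Thyroid hormone receptors regulate metabolic genes in response to triiodothyronine, and both of their genes had peaks. In the length class of *Thra*, 21.8% of all genes had a vehicle peak and 15.6% a cAMP peak. In that of *Thrb*, the longest, 33.8% and 27.3% did. *Thra*, which encodes the alpha receptor, was the most densely occupied of the 4 genes with most peaks. It is 28.4 kb long and had 3 peaks in each list, all in the same places, which amounts to 62.0 peaks per Mb of its window in each list. Those 4 genes were picked by their number of peaks, so a high density is partly given by that choice. Density was not computed for other short genes such as *Nr2f6*, which is 7.84 kb long and had 2 vehicle peaks. At least 3 peaks were held by 1.55% of all genes in the vehicle list and by 0.733% in the cAMP list. The peak at the 5′ end, chr11:98741069-98741716 in the vehicle list, scored 85.84 in vehicle and 74.83 in cAMP cells, above 64.5% and 59.3% of the lists. The intron 2 peak, chr11:98754616-98755332, scored 167.71 and 83.36, above 91.5% and 66.6%, and its centre lay 1.39 kb from an annotated TSS. The third peak, chr11:98776071-98776631, scored 135 and 57.22, above 85.9% and 27.0%. It lies beyond the 3′ end of *Thra*, 7065 bp away, and its centre is 1.02 kb upstream of the TSS of *Nr1d1*, the gene of the clock repressor REV-ERB alpha, within 10 kb of which it also falls. Each of the 3 regions held 1 consensus copy, present in both lists' peaks.

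*Thrb*, the beta receptor gene, is 378 kb long and had 2 vehicle peaks and no cAMP peak. The higher-scoring, chr14:17983301-17983929, scored 122.03, above 82.3% of the vehicle peaks, and its centre was 2.09 kb from a TSS. The other, chr14:17902263-17902891, scored 76.17. Each contained 1 copy of CCAAGGTC. The nearest cAMP peak to the *Thrb* gene was 249 kb away.

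The RORs are constitutively active receptors that drive clock and lipid genes. *Rora*, the longest of the 35 genes at 734 kb, had 4 vehicle and 3 cAMP peaks. At least as many vehicle peaks were held by 143 of all genes. One peak, chr9:68656132-68656602, lay 2.58 kb inside the outermost 5′ end and scored 104.65 in vehicle and 60.85 in cAMP cells. A second, chr9:68756817-68757384, lay in an intron 103 kb from the 5′ end. It scored 136.58 and 138.88, above 86.4% and 89.5% of the lists. These 2 regions were called in both lists, and the second was the only region at a nuclear receptor gene apart from that of *Esrrb* whose cAMP score was the higher. The other vehicle peaks, with scores of 63.48 and 54.35, and the other cAMP peak, with 54.59, had no overlap in the other list. Per Mb of window *Rora* held 5.3 vehicle peaks and 3.98 cAMP peaks, nearer to the 3.42 and 2.33 of all genes than *Thra* was. *Rorb* had 1 cAMP peak, which scored 50.36, above 1.84% of the list.

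**Figure D3:**
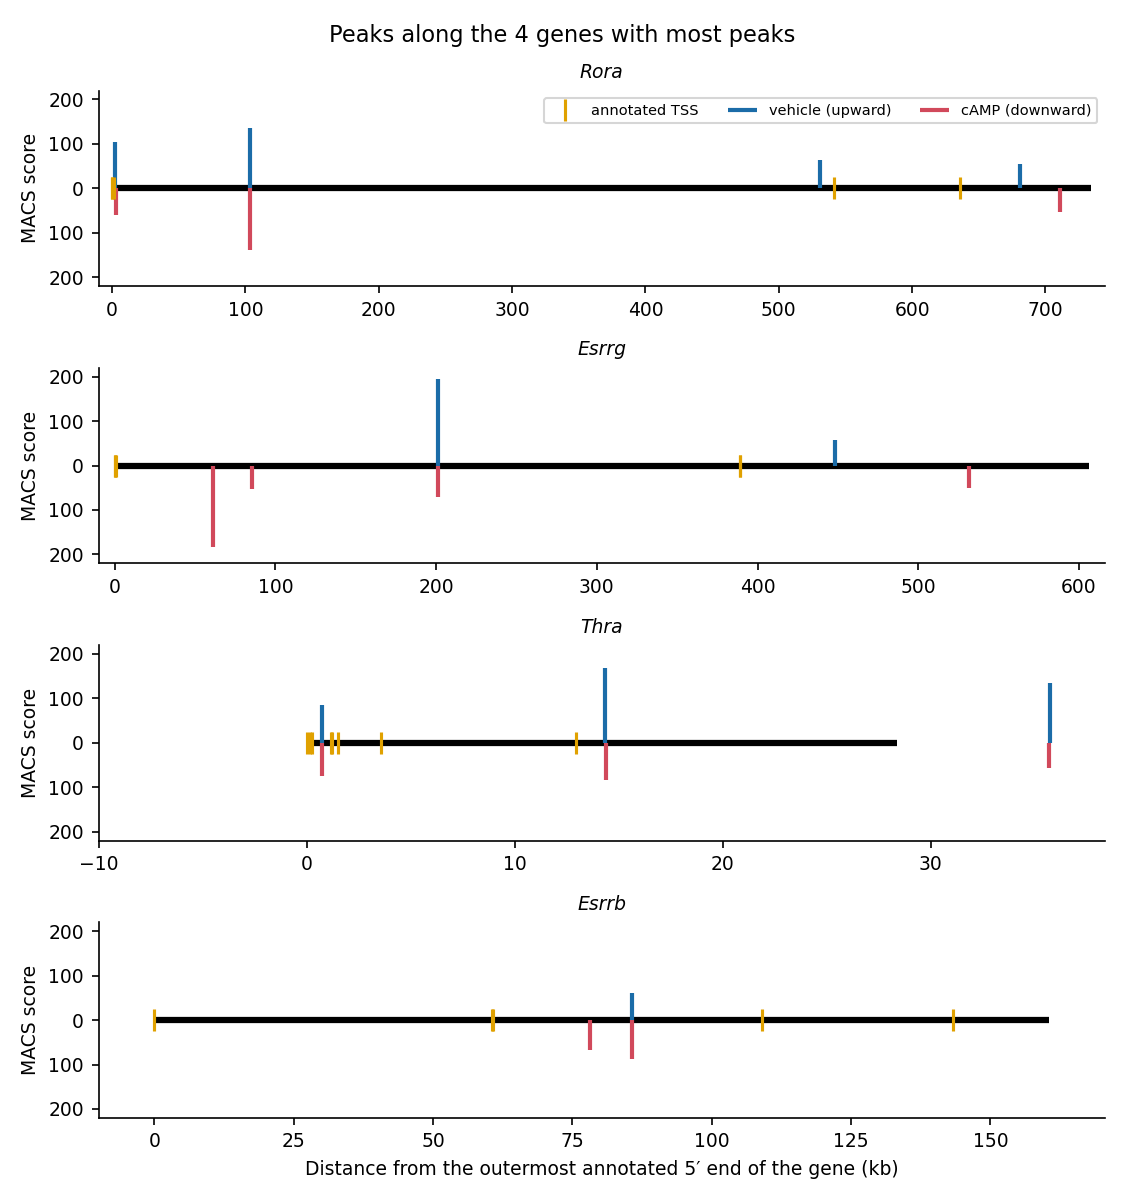
Peaks along *Rora*, *Esrrg*, *Thra* and *Esrrb*, drawn to scale by distance from the outermost annotated 5′ end of each gene in kb. Line heights are MACS scores, upward for vehicle and downward for cAMP, and yellow ticks are annotated TSSs. The 3 *Thra* regions and 2 of the *Rora* regions coincide between lists, whereas the cAMP peak 61.1 kb into *Esrrg* has no vehicle counterpart.

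The estrogen-related receptors have no known natural hormone, control genes of mitochondrial energy metabolism, and recognise DNA much as Ad4BP/SF-1 does. All 3 of their genes had a vehicle peak and 2 a cAMP peak, with 4 vehicle and 6 cAMP peaks in all. *Esrrg* and *Esrrb* are in the longest length class, where 33.8% of all genes had a vehicle peak and 27.3% a cAMP peak, and *Esrra* is in a shorter class, where 13.3% and 8.36% did. *Esrrg*, which is 606 kb long, had 2 vehicle and 4 cAMP peaks, and 39 of all genes had at least as many cAMP peaks. Per Mb of window it held 3.19 vehicle peaks, beside 3.42 for all genes, and 6.39 cAMP peaks, beside 2.33. The region called in both lists, chr1:187809372-187810043 in the vehicle list, scored 194.66 in vehicle cells, above 94.3% of the list, and 71.23 in cAMP cells, above 55.1%. The highest-scoring cAMP peak at any of the 35 genes lay 61.1 kb from the 5′ end of *Esrrg*, chr1:187669584-187670289. It scored 184.21, above 95.3% of the cAMP peaks, and the nearest vehicle peak was 139 kb away. It contained 4 consensus copies, the most of any peak at these genes, of which 3 lay close together. The plus strand from 20 bases before the first copy to 20 bases after the last, 261 bases in all, is shown because of this cluster.
*Esrrg*, cAMP only, chr1:187669707-187669967: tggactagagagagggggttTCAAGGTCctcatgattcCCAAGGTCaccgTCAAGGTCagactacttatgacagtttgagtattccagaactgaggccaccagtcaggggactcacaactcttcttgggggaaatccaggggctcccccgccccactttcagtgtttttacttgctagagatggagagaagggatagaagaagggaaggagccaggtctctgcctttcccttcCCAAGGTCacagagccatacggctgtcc
The remaining *Esrrg* peaks scored 56.38 in the vehicle list and 53.76 and 50.5 in the cAMP list, and none overlapped a peak of the other list.

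*Esrrb* had 1 vehicle peak and 2 cAMP peaks, all in intron 1. The region of both lists, chr12:86446575-86447128, scored 61.93 in vehicle and 86.45 in cAMP cells, above 32.6% and 69.1%. It contained 3 consensus copies in each list, all in sequence that the reference genome masks as repeats. The second cAMP peak, chr12:86438997-86439496, scored 66.76, contained 1 copy outside repeats, and lay 7.08 kb from the vehicle peak. *Esrra* had 1 vehicle peak and no cAMP peak. The vehicle peak, chr19:6922080-6922652, was centred 0.553 kb upstream of the TSS and scored 97.07, above 71.9%. The nearest cAMP peak to the *Esrra* gene was 58.7 kb away.

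The estrogen receptors mediate the action of estradiol. *Esr1* had 2 vehicle peaks, in introns 2 and 4, which scored 56.48 and 61.03 and each held 1 copy, and it had no cAMP peak. *Esr2* had none, and the nearest peaks were 25.6 kb (vehicle) and 31.5 kb (cAMP) away. Of the genes for the progesterone, glucocorticoid and mineralocorticoid receptors, *Pgr*, *Nr3c1* and *Nr3c2*, the last had a peak in each list, at different places. Its vehicle peak, chr8:77099489-77099915 in intron 3, scored 54.21 and held no consensus. Its cAMP peak, chr8:77049451-77049994 in intron 2, scored 64.43 and held CCAAGGTC, and the 2 peaks were 49.5 kb apart. The nearest peaks to *Pgr* were 242 kb and 241 kb away, and those to *Nr3c1* 39.0 kb and 147 kb away.

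Retinoic acid receptors bind DNA with retinoid X receptors, and between them 1 of 6 genes had a peak in either list, a share near the 23.1% of all genes. *Rara* had a peak in both lists, chr11:98929089-98929745 in the vehicle list, centred 1.6 kb inside its 5′ end. It scored 81.43 in vehicle and 62.04 in cAMP cells, above 60.1% and 39.9%, and it lies within 10 kb of *Cdc6* as well. *Rarb*, *Rarg*, *Rxra*, *Rxrb* and *Rxrg* had none. *Rxra* came nearest to the limit of 10 kb among the 17 nuclear receptor genes without a peak, with a cAMP peak 21.2 kb away that scored 52.35. Within the limit, the outermost peaks were a vehicle peak 7111 bp from *Nr2f6*, which scored 52.34, the *Thra* peak near *Nr1d1*, and a vehicle peak 6415 bp from *Nr2e1*, which scored 51.19.

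The PPARs are fatty acid sensors that pair with retinoid X receptors. *Ppara* had a vehicle peak, chr15:85734607-85735041, across its outermost TSS, with a score of 53.18 and no consensus, and a cAMP peak 11.9 kb from the gene fell outside the limit. *Ppard* had 2 cAMP peaks in intron 2 and no vehicle peak. The first, chr17:28248721-28249294, scored 81.44, above 65.5% of the list, with its consensus copy in masked repeat sequence, and the second, chr17:28263930-28264405, scored 52.35. The nearest vehicle peak to *Ppard* was 25.5 kb away. *Pparg*, the fat cell regulator, had no peak within 373 kb in either list.

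Among the orphan receptors of the COUP-TF group, *Nr2f6* had 2 vehicle peaks and no cAMP peak. One, chr8:71375422-71376047, scored 76.56 and was centred 0.0555 kb from an annotated TSS within the gene, and the other was centred 0.033 kb from the TSS of *Use1*. *Nr2f2*, which encodes COUP-TFII, a marker of Leydig cell progenitors, and *Nr2f1* had none, and the nearest peaks to *Nr2f2* were 427 kb away in both lists. *Nr2c1* and *Nr2e1* had 1 vehicle peak each, with scores of 71.9 and 51.19, and *Nr2c2* and *Nr2e3* none. The *Nr2c1* peak was centred 0.328 kb from the TSS of *Ndufa12*. Of the vitamin D, xenobiotic and bile acid receptor genes, *Nr1i3* and *Nr1h4* had 1 vehicle peak each, with scores of 60.84 and 58.21, and *Vdr* and *Nr1i2* none. The *Nr1i3* peak was centred 0.169 kb from the TSS of *Tomm40l*. The HNF4 genes, *Hnf4a* and *Hnf4g*, had none, with the nearest peak of either list 33.9 kb and 210 kb away.

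The highest-scoring vehicle peak at any of the 35 genes lay beyond the 3′ end of *Nr6a1*, the gene of germ cell nuclear factor, at chr2:38718505-38719912. It scored 314.86, above 98.5% of the vehicle peaks, and the overlapping cAMP peak scored 59.77, above 34.9%. Its centre was 4.67 kb upstream of the TSS of *Nr5a1*, which encodes Ad4BP/SF-1 and adjoins *Nr6a1*, and 21.3 kb from the nearest TSS of *Nr6a1*. Over all peaks at the 35 genes, the nearest protein-coding TSS was that of the nuclear receptor gene for 20 of 25 vehicle peaks (80%, 59.3% to 93.2%) and 14 of 18 cAMP peaks (77.8%, 52.4% to 93.6%). Over all pairs of a peak and a gene these shares were 70.1% and 72.7%. For *Nr6a1*, *Nr1i3* and *Nr2c1* every peak was nearer to the TSS of another gene.

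Scores of the 9 regions called in both lists can be set side by side. The vehicle score was the higher in 7 of 9, and in 61.1% of all 2167 peaks called in both. The median scores were 135 (vehicle) and 71.2 (cAMP), against 96.6 and 84.1 over all such peaks. Since the scores depend on the unknown depth of 1 library each, treatment and library cannot be told apart here.

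**Figure D4:**
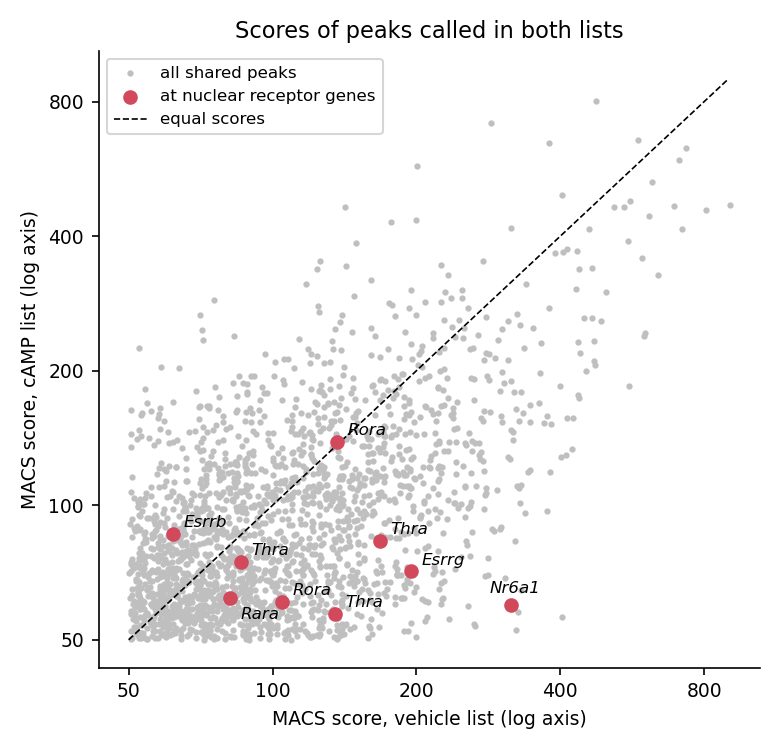
MACS score in the cAMP list against that in the vehicle list (log axes) for the 2167 peaks called in both (grey) and the 9 at nuclear receptor genes (red, named). The dashed line marks equal scores. The *Rora* intron and *Esrrb* regions lie above it and the other 7 below, with *Nr6a1* farthest to the right at 314.86.

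A consensus copy lay in 21 of 25 vehicle peaks at these genes, or 84% (63.9% to 95.5%), beside 80.4% of all vehicle peaks. A copy lay in 16 of 18 cAMP peaks, or 88.9% (65.3% to 98.6%), beside 77.1% of all cAMP peaks. Regions of the same widths placed 5 kb to either side of all peaks held it in 13.5% (vehicle) and 11.8% (cAMP) of cases. The peaks without it were those of *Ppara* and the vehicle peak of *Nr3c2*, 1 of *Nr2f6*, 1 of *Esrrg* and 2 of *Rora*. All of these scored under 60. Of the 24 copies in vehicle peaks, 20 were followed by an A, which completes the hexamer AGGTCA where the copy ends in AGGTC, and of the 23 copies in cAMP peaks 19 were. Over all copies these shares were 81.4% and 84.4%. The copies lay at a median of 51.8 and 42.0 bp from the peak centres. Repeat-masked sequence held 8 of the 24 and 7 of the 23 copies, or 33.3% and 30.4%, beside 36.1% and 40.9% of all copies.

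**Figure D5:**
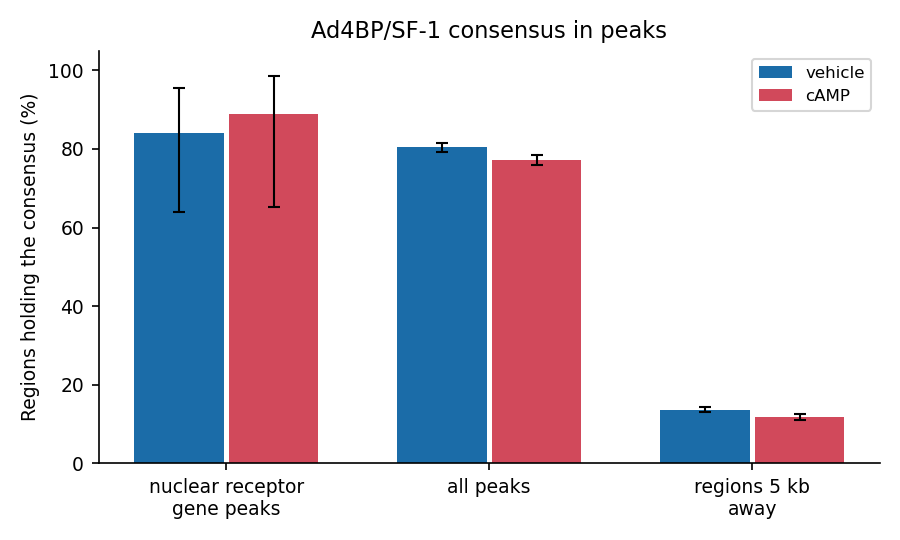
Share of regions that hold the consensus, in percent, in the peaks at nuclear receptor genes, in all peaks and in regions of the same widths 5 kb away. Bars are shares (blue vehicle, red cAMP) and error bars 95% exact intervals. The peaks at nuclear receptor genes, at 84% and 88.9%, have intervals that contain the shares of all peaks.

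The hexamer AGGTCA itself, searched for on both strands, was present in 17 of 25 vehicle peaks and 16 of 18 cAMP peaks, beside 71.5% and 69.2% of all peaks, and it overlaps the consensus wherever AGGTC is followed by A. TGANTCA with any base at N, a pattern that includes the element of AP-1 factors but is broader, was present in 4 vehicle peaks and 1 cAMP peak (21.6% and 23.2% of all peaks). TGACGTCA, the full cAMP response element, was found in 0 of 25 and 0 of 18, which allows shares of up to 13.7% and 18.5% (exact 95% bounds), beside 0.699% and 0.77% of all peaks.

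Most peaks lay away from promoters. Among vehicle peaks, 4 of 25 (16%, 4.54% to 36.1%) were centred within 1 kb of a TSS of the gene, those of *Thra*, *Nr2f6*, *Ppara* and *Esrra*, while 1 of 18 cAMP peaks (5.56%, 0.141% to 27.3%) was, again at *Thra*. Over all pairs of a peak and a gene the shares were 14.3% and 12.9%. RefSeq promoters, taken as 250 bases before to 50 after a TSS on GRCm38.p6, were matched for 32 of the 35 genes, with *Hnf4g*, *Nr3c1* and *Thra* unmatched. The table's start sites are not always those of GENCODE used above, and 0 of their 51 promoters was overlapped by a peak of either list, beside 1.14% (vehicle) and 0.517% (cAMP) of the 32851 promoters of all genes. The consensus was held by 1 of the 51, of *Pparg*, beside 5.73% of all promoters.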

How the data were processed

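The authors mapped uniquely placed reads to mm10 with Bowtie (0.12.8 in the submitters' processing notes), allowing up to 3 mismatches, and called peaks in each library with MACS. The deposited lists hold positions and the MACS score. Whether the input served as control, and the depth, are not given in the sources used here. Leaving out reads with several positions can remove peaks in repeats.

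Overlaps, distances and sequences were computed with Python 3.11.15, numpy 2.4.6, pandas 2.3.3, scipy 1.17.1 and pysam 0.24.0, after tests on simulated data, and drawn with matplotlib 3.10.9. Genes and TSSs were those of GENCODE M21, introns were numbered in the principal coding transcript, and coordinates count from 1. Peaks with at least 1 shared base overlap. Repeats are the masked bases of the RefSeq mm10 sequence. All 35 genes are named. The genes, lists and motifs were chosen with earlier results of these data known. Alternatives were the window, nearest TSS, stricter scores, equal list lengths, the consensus, the overlap and the TSS distance. One coregulator gene is not reported here by name.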

Additional observations from a re-analysis of the deposited data

How the results depend on the processing

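With 50 kb on either side, 16 nuclear receptor genes had a cAMP peak and 14 a peak in both lists, instead of 9 and 7, as 28.8% of all genes then had a cAMP peak. With scores of at least 75, the counts were 8 (vehicle), 5 (cAMP), 3 (both) and 10 (either), and with at least 100 they were 5, 2, 2 and 5, where 6.62% of all genes had a vehicle peak. The *Rora* and *Esrrg* genes kept a peak of each list at that score. Among the peaks of at least 100, the consensus was in 100% of 7 vehicle and 100% of 2 cAMP peaks. A cAMP peak that also reached 100 overlapped 14.3% of the 7 vehicle peaks, and 0% of 7 and 0% of 2 were centred within 1 kb of a TSS. For these values the share over all peaks of at least 100 was not computed, so nothing is read from them. Against the whole cAMP list, an alternative chosen after seeing the data, 85.7% of these 7 vehicle peaks were overlapped, or 6 of 7, beside 67.9% of all vehicle peaks of at least 100, and 50% of the 2 cAMP peaks were overlapped by any vehicle peak, beside 88.6% of all such cAMP peaks. The lower counts follow from fewer peaks and the higher ones from the wider window, and for the shares, which rest on 7 and 2 peaks, the cause was not tested. Of 48 alternatives, 32 stayed within 1.5 times of the count or within the interval of the share, among them the gene body only, the nearest TSS and equal list lengths. No paired analysis was possible because each condition has 1 library. The unknown depth, with 1 library per condition, limits what the lack of a peak at a gene can show.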

Other observations

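Genes of nuclear receptor coregulators, which carry the activating or repressing enzymes to the receptors, also had peaks. Of 16 such genes, 7 had a vehicle peak (43.8%, 95% exact interval 19.8% to 70.1%) and 8 a cAMP peak (50%, 24.7% to 75.3%), beside 19.3% and 13.9% of all protein-coding genes. These genes are long, with a median of 84.8 kb. In the longest of the 5 length classes, 6 of 11 had a vehicle peak and 4 of 11 a cAMP peak, where 33.8% and 27.3% of all genes did. In the next class, 0 of 2 and 2 of 2 did (21.8% and 15.6% of all genes). The class below it had 1 of 2 and 2 of 2 (18.2% and 12.3%), and the class below that 0 of 1 and 0 of 1 (13.3% and 8.36%). *Ncor1*, a corepressor gene, had 2 vehicle peaks and 1 cAMP peak, and the cAMP peak, in intron 1, scored 136.73, above 89.1% of the list, where the overlapping vehicle peak scored 56.52, above 19.6%. The order was the opposite in intron 9 of *Ncoa1*, a coactivator gene, where the vehicle peak scored 78.14, above 56.6%, and the overlapping cAMP peak 55.11, above 19.8%. *Ncoa2*, *Ncoa4*, *Ncoa6*, *Hdac3* and *Nrip1* held higher-scoring peaks than *Ncoa1*. The *Ncor1* and *Ncoa1* regions are examples and give no contrast between corepressor and coactivator genes. No peak was called at *Crebbp*, *Ep300*, *Ncoa3*, *Ppargc1a*, *Ppargc1b* or *Prmt1*.

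The remaining 14 nuclear receptor genes of the mouse have a median length of 21.2 kb. In each list 3 of them, *Nr5a1*, *Nr0b2* and *Nr1d1*, had a peak (21.4%, 4.66% to 50.8%), beside 19.3% (vehicle), 13.9% (cAMP) and 10.1% (both) of all genes, and those of *Nr5a1* and *Nr1d1* are the peaks also counted above at *Nr6a1* and *Thra*. *Nr0b2*, the gene of the corepressor SHP, had a peak at -0.219 kb from its TSS (upstream) that scored 139.77 in vehicle cells, above 87.3% of the list, and the cAMP peak there scored 52.96, above 13.2%, and held no consensus. Its other region called in both lists, centred 10.0 kb from the TSS on the downstream side, scored 85.56 and 71.47, above 64.3% and 55.3%, and held 2 consensus copies in each list.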
